A study of Rattus norvegicus with 12 samples.

Results

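The collagens, laminins and matrix glycoproteins of the rat mesenteric lymph node (MLN) were examined as 74 genes out of the 14217 that were measured. They were all genes whose symbol on the array names a collagen chain (Col followed by a number), a laminin chain (Lama, Lamb, Lamc), a fibrillin (Fbn), a fibulin (Fbln, Efemp), a lysyl oxidase (Lox) or a thrombospondin (Thbs), together with Eln, Fn1, Sparc, Postn, Dcn, Lum, Bgn, Tnc and Mfap4. The rule that picks the members reads gene names and no measured value, and it was drawn up with earlier results of these data known. These genes had 102 probe sets, and the probe set with the highest mean over the 12 arrays stood for its gene. Of the 74 genes, 60 were above the background in all 12 arrays, 2 (Col9a1 and Col19a1) were within it in all 12, and the other 12 were above it in some arrays.

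The study asked how early supplementation with conjugated linoleic acid (CLA), a family of linoleic acid isomers present in milk, affects gene expression in the MLN, the lymph node that drains the intestine. RNA was taken at day 21 from the MLN of 12 Wistar pups in 4 groups of 3, and each pup had an array of its own. In group A the dams ate a diet with 1% CLA for 2 wk of gestation and went on with it until weaning, so that the pups received CLA in milk, and the total period of supplementation (TPS) was 5 wk. In group B the dams ate the same CLA diet in gestation only, the pups were given CLA by daily oral gavage while they suckled, and the TPS was 5 wk. In group C the dams ate the standard diet throughout and the pups were given CLA by daily oral gavage while they suckled, which made a TPS of 3 wk. In group D, the reference, dams ate the standard diet and neither the labels nor the methods name a gavage, so that gavage itself and CLA given by gavage cannot be told apart in groups B and C against the other groups. All groups shared the strain, the age and the tissue. The litters of the 12 pups are not given in the sources used here, so that the p-values measure the spread between these pups. The methods give litters and experimental groups the same number of pups, so that the pups of a group may come from the same litter. In that case the p-values hold no spread between litters, and diet and litter cannot be told apart.

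The extracellular matrix of a lymph node is made largely by fibroblastic reticular cells, which wrap fine collagen fibres in a basement membrane and so form the conduits that carry lymph fluid between the lymphocytes. Fibrillar collagens give the fibres and the capsule their strength, type IV collagen and laminins form the sheets under vessels and around conduits, and elastin with its microfibrils gives recoil to vessel walls and capsule. Small proteoglycans and matricellular proteins coat or link these fibres and set their thickness.

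All values are log2 intensities after quantile normalization, and a gene was called at an adjusted p under 0.05 in limma. None of the 9 measured T cell markers and none of the 7 measured B cell markers was within the background in every array. The same held for every marker of the other cell types examined except Foxd3, so that this does not identify the tissue. The third array of group D stood apart. Across probe sets its mean correlation was 0.931 with group B and 0.930 with group C, against 0.896 with the other arrays of its own group and 0.884 with group A. Among the 74 matrix genes it was the lowest of the 3 group D arrays in 57 (77.0%), against 51.5% of all genes, and its median distance from the mean of the other 2 group D arrays was -0.74 for the matrix genes and -0.18 for all genes. Every comparison with group D is therefore given with and without this array. The ratio of 3' to 5' signal of hexokinase, a sign of RNA integrity, ranged over 2.84 to 4.96 for the arrays of group A. For the other groups it ranged over 1.62 to 3.24. In the same order that of GAPDH ranged over 1.21 to 1.53 and 1.06 to 1.28, and that of beta-actin over 1.37 to 1.79 and 1.30 to 1.91. The part of RNA integrity in the results for group A was not tested.

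Upstream sequences are shown for the 5 basement membrane genes of lowest adjusted p between group A and the gavaged groups, of which Col4a1 and Col4a2 are read from one short stretch, and for Postn and Lum as genes that behaved otherwise. They are RefSeq sequences of rat assembly GRCr8, written 5' to 3' on the strand named, each ending at the last base before the start of the named gene, with capitals on the letters CCGCCC (the GC box, read as GGGCGG on the other strand) or TATAAA (the TATA box). Col4a1 lies on the plus strand and Col4a2 on the minus strand, and their annotated starts face away from each other across 76 bases. Upstream of Col15a1, Col18a1, Lama5, Postn and Lum 100 bases are shown.
Col4a1 and Col4a2, chr16:84885521-84885596, plus strand: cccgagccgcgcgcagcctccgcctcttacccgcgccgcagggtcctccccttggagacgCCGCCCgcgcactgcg
Col15a1, chr5:66297446-66297545, plus strand: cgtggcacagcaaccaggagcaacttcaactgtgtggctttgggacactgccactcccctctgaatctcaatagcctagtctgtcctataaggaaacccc
Col18a1, chr20:11473545-11473644, plus strand: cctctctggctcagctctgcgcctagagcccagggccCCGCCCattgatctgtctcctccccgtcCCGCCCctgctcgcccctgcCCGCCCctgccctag
Lama5, chr3:187695975-187696074, minus strand: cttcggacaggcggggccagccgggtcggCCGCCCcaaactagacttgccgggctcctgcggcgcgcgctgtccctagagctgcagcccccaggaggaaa
Postn, chr2:140677961-140678060, plus strand: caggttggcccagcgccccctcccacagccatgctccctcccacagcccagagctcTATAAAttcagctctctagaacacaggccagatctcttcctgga
Lum, chr7:34245606-34245705, plus strand: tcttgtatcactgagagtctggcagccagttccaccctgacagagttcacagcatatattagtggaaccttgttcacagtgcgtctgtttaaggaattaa

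The stretch between Col4a2 and Col4a1 holds 1 GC box, the window of Col18a1 holds 3, that of Lama5 holds 1, and those of Col15a1, Postn and Lum hold none. The TATA box stands in the window of Postn only among these 6 sequences. Over the 55 matrix genes that have such a window of 100 bases, 26 (47.3%) hold a GC box on either strand, against 21.6% of all 33469 windows and 41.1% of the 11733 measured genes with a window. The TATA box was found in 2 of the 55 and in 5.78% of all windows, and CCAAT, searched with its complement ATTGG, in 3 of the 55 and in 17.1% of all windows. A GC box stood in 16 of the 28 matrix genes with a window that were higher in group A than in groups B and C (57.1%), and in 10 of the other 27 (37.0%). These matches are letters in a window and not sites of binding.

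Group A, supplied through milk, had higher matrix transcripts than groups B and C, supplied by gavage. The means compared hold no array of group D, although group D entered the normalization and the estimate of the spread. Of the 74 genes, 38 were higher in group A (51.4%), where 31.6% of all genes were, and 2, Dcn and Postn, were lower, where 16.9% of all genes were. Without the third array of group D, 45 were higher (60.8%, and 35.2% of all genes) and 2 lower (18.3% of all genes). In 44 of the 74 genes (59.5%) all 3 arrays of group A lay above all 6 arrays of groups B and C, against 33.8% of all genes, and 64 of the 74 had a positive difference. The median difference was 0.60 for the matrix genes and 0.32 for all genes. Brighter genes were called more often. The calls of the same fit, over all probe sets, were also counted outside the dimmest 40% of probe sets. There 35 of 60 matrix genes were higher (58.3%), and 41.2% of 10454 genes in all. Scaling moved the common shift, and with the intensities as deposited the medians were 1.11 for the matrix genes and 0.73 for all genes, with 49 matrix genes higher and 1 lower. The share of all genes called with that scaling was not counted. The matrix median stayed above the median of all genes, which was 0.34 after centring on the 75th percentile and 0.00 with a floor at an intensity of 32, where that of the matrix genes was 0.70 and 0.51. In whole tissue, fewer cells of a type and less RNA in each cell cannot be told apart.

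**Figure D1:**
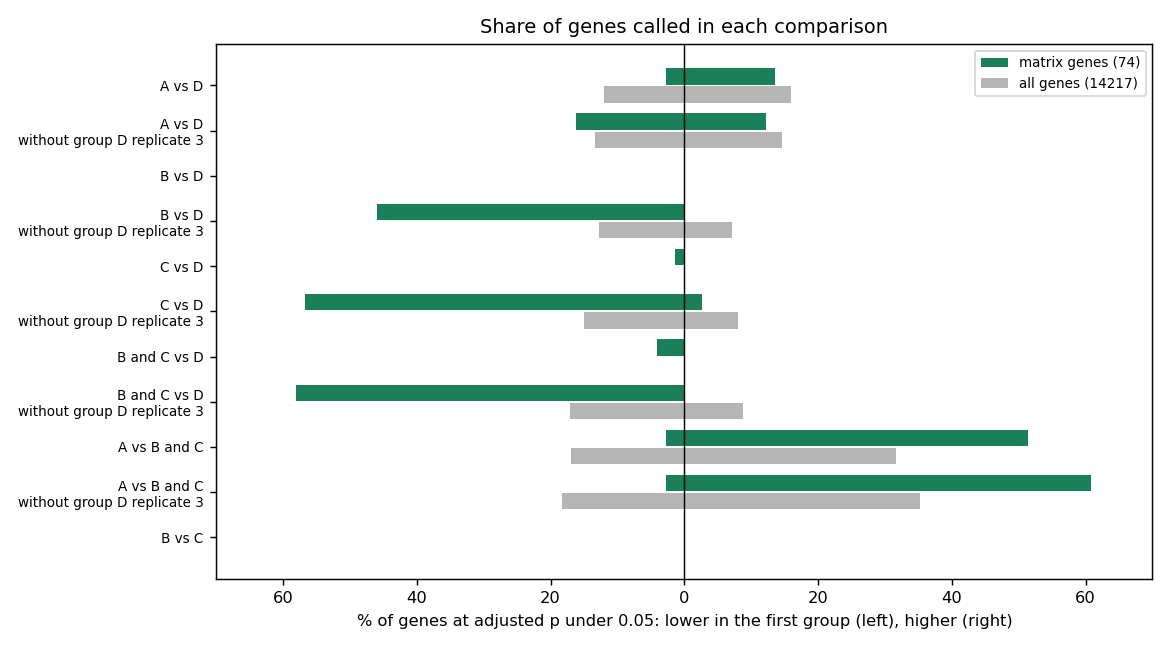
Share of genes called at an adjusted p under 0.05 in each comparison, in percent, with genes lower in the first group to the left of 0 and genes higher in it to the right; green bars are the 74 matrix genes and grey bars all 14217 genes. In the row of group A against both gavaged groups the green bar reaches 51.4% on the right, where the grey bar reaches 31.6%, and without the third array of group D 60.8% and 35.2%. For groups B and C together against group D the green bar on the left is 4.05% with all arrays, where the grey bar is 0.12%. Without the third array of group D the green bar is 58.1% and the grey bar 17.1%.

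Fibrillar collagens, the chains of the thick fibres, were higher in group A than in groups B and C in 8 of 11 genes and lower in none, with a median difference of 0.64. The counts by role, here and below, stand beside 31.6% of all genes higher and 16.9% lower, and the medians beside 0.32. Col1a1, the main chain of type I collagen, lay at 10.44, 10.43 and 10.45 in group A, 8.97, 9.55 and 9.34 in group B, 9.42, 9.31 and 9.80 in group C, then 10.48, 11.27 and 10.18 in group D. Group A was above every gavaged pup and within the range of group D. The difference between group A and groups B and C was 1.04 ± 0.20 (SE, 3 against 6 pups, adjusted p = 0.00147), a fold of 2.05. Its partner chain Col1a2 lay at 10.67, 10.37 and 10.50 in group A, 9.86, 9.99 and 9.82 in group B, 9.93, 9.54 and 10.12 in group C, then 10.90, 11.39 and 10.33 in group D, a smaller difference of 0.64 ± 0.19 between group A and the gavaged groups (adjusted p = 0.0179). Col3a1, the collagen of reticular fibres, lay at 12.00, 12.07 and 12.07 in group A, 11.71, 11.85 and 11.86 in group B, 11.75, 11.68 and 11.81 in group C, then 11.80, 12.16 and 11.80 in group D. Group A was above every gavaged pup here too, but the difference was only 0.27 ± 0.10 (adjusted p = 0.0415), below the median of all genes. Col5a1, which starts the assembly of type I fibres, lay at 8.80, 9.19 and 8.93 in group A, 8.00, 8.21 and 7.95 in group B, 7.95, 8.00 and 7.76 in group C, then 8.66, 8.93 and 7.97 in group D. It was higher in group A than in the gavaged groups by 1.00 ± 0.18 (adjusted p = 0.000685). Col5a3, another chain of type V, lay at 7.93, 8.23 and 8.27 in group A, 7.08, 7.43 and 7.07 in group B, 6.64, 6.63 and 7.49 in group C, then 7.11, 7.82 and 7.66 in group D, with a difference of 1.09 ± 0.21 (adjusted p = 0.00122). Col2a1, Col11a2 and Col27a1, which are known best from cartilage, were called too, with differences of 1.21, 1.09 and 0.57, and Col2a1 was within the background in 2 of the gavaged pups. Col5a2, Col11a1 and Col24a1 did not pass the test, at 0.14, 0.19 and -0.27.

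The basement membrane collagens held the matrix gene of lowest adjusted p, Col15a1, and 6 of 7 were higher in group A than in groups B and C, with a median difference of 1.08. Col4a1, a chain of the type IV network, lay at 10.42, 10.49 and 10.42 in group A, 9.52, 9.69 and 9.58 in group B, 9.48, 9.21 and 9.38 in group C, then 9.69, 10.21 and 9.58 in group D. Group A was above every other pup, group D included. The difference from the gavaged groups was 0.97 ± 0.13 (adjusted p = 7.96e-05) and that from group D 0.62 ± 0.14 (adjusted p = 0.00934). Col4a2, which shares with Col4a1 the upstream stretch printed above, lay at 9.13, 9.26 and 9.22 in group A, 8.08, 8.41 and 8.12 in group B, 8.09, 7.98 and 7.83 in group C, then 8.63, 9.17 and 8.25 in group D. It was higher in group A than in the gavaged groups by 1.12 ± 0.16 (adjusted p = 0.000179), while against group D, with which it overlapped, the difference was 0.52 ± 0.19 (adjusted p = 0.0696). Col15a1, a collagen that joins basement membranes to the fibres beneath, lay at 9.07, 9.25 and 9.20 in group A, 8.13, 8.34 and 8.10 in group B, 7.96, 8.00 and 8.05 in group C, then 8.29, 8.72 and 8.94 in group D. All 3 group A pups were above all others, and the third array of group D was here the highest of its group. The difference from the gavaged groups was 1.08 ± 0.13 (adjusted p = 4.18e-05). Col18a1, the precursor of endostatin, lay at 8.27, 8.19 and 8.06 in group A, 6.54, 6.79 and 6.48 in group B, 6.42, 6.89 and 6.53 in group C, then 7.15, 7.71 and 6.67 in group D. It again set group A above all other pups, by 1.57 ± 0.19 against the gavaged groups (adjusted p = 5.79e-05), a fold of 2.96. Col4a5 differed by 0.91. Col4a6, at 1.72, was within the background in 5 of the 6 gavaged pups and overlapped between groups, and Col4a4, within the background in 10 of 12 arrays, was not called.

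Collagens VI, VII, VIII, X and XXVI, a mixed group of microfibril, anchoring and network collagens, were higher in group A than in groups B and C in 5 of 10 genes. Col6a1, a chain of the beaded filaments around cells, lay at 9.86, 9.90 and 9.93 in group A, 8.87, 8.99 and 8.89 in group B, 8.64, 8.79 and 8.84 in group C, then 9.55, 10.12 and 8.74 in group D. The third array of group D fell here among the gavaged pups, and the other 2 lay near group A. The difference between group A and the gavaged groups was 1.06 ± 0.21 (adjusted p = 0.00149). Col6a2 lay at 9.09, 9.15 and 9.09 in group A, 7.55, 7.83 and 7.74 in group B, 7.29, 7.64 and 7.69 in group C, then 8.86, 9.05 and 7.53 in group D, and differed by 1.49 ± 0.26 (adjusted p = 0.000585), while the third chain, Col6a3, missed the threshold at 0.51 (adjusted p = 0.0581). Col8a2, a network collagen of vessel walls and of the eye, lay at 6.64, 7.04 and 7.12 in group A, 5.69, 5.24 and 5.28 in group B, 5.09, 4.88 and 5.46 in group C, then 6.11, 6.64 and 5.50 in group D. It gave a difference of 1.66 ± 0.24 between group A and the gavaged groups (adjusted p = 0.000187), a fold of 3.17. Col26a1 differed by 1.52 and Col7a1, the anchoring fibril collagen of skin, by 1.15. Among fibril-associated collagens, which sit on the surface of fibres, 2 of 9 were called higher, where 31.6% of all genes were. The median difference of the 9 was 0.22, below the 0.32 of all genes. Col16a1 lay at 7.70, 7.97 and 7.70 in group A, 6.95, 6.94 and 6.92 in group B, 7.04, 6.66 and 6.58 in group C, then 7.42, 7.78 and 6.87 in group D, a difference of 0.94 ± 0.18 (adjusted p = 0.00114), and Col9a3 differed by 0.86. Of the 4 transmembrane collagens, Col13a1 and Col17a1 were higher, by 1.46 and 0.81.

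**Figure D2:**
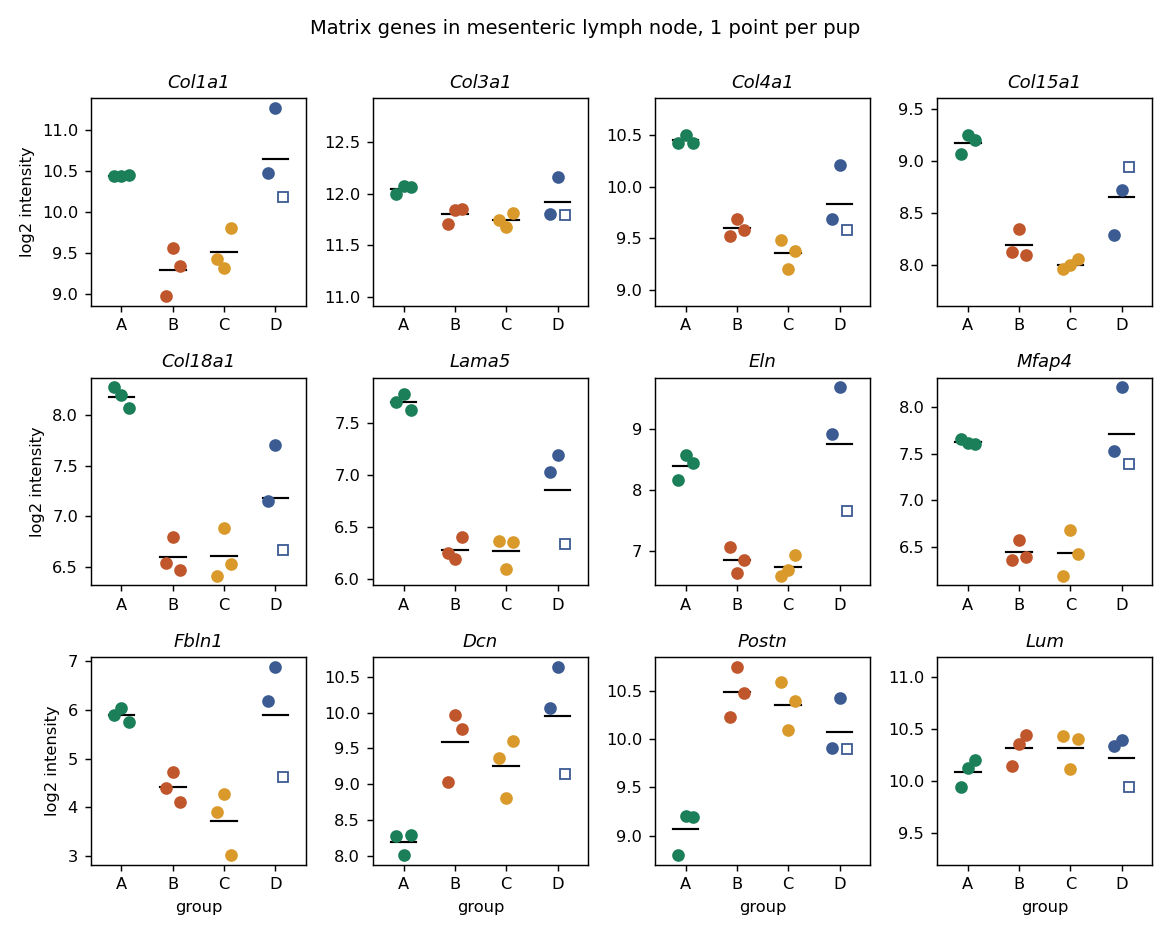
Log2 intensity (vertical axis) of 12 matrix genes in groups A, B, C and D (horizontal axis), with 1 point for each pup, a black line at the group mean and an open square for the third array of group D. In 9 panels every pup of group A lies above every pup of groups B and C; in Dcn and Postn group A lies below all other pups, and in Lum the 4 groups overlap.

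Laminins, the cross-shaped glycoproteins of basement membranes, were higher in group A than in groups B and C in 4 of 10 genes: Lama5, Lamb2, Lamc1 and Lamc3. Of all genes 31.6% were higher, and the median difference was 0.44 for the laminins and 0.32 for all genes. Lama5, the alpha chain of vascular and epithelial basement membranes, lay at 7.70, 7.78 and 7.62 in group A, 6.25, 6.19 and 6.40 in group B, 6.36, 6.09 and 6.36 in group C, then 7.03, 7.19 and 6.33 in group D. Group A was above every other pup, and the third array of group D lay within the gavaged groups. The difference from the gavaged groups was 1.43 ± 0.17 (adjusted p = 4.79e-05), a fold of 2.69. Its dimmer probe sets, within the background in 7 and 10 arrays, gave -0.0005 and 0.81 and were not called. Lamc1, the common gamma chain, lay at 9.79, 9.53 and 9.61 in group A, 8.91, 9.05 and 9.26 in group B, 8.95, 8.62 and 8.96 in group C, then 9.34, 9.70 and 8.71 in group D, and differed by 0.69 ± 0.18 (adjusted p = 0.00791). A dimmer probe set of Lamc1, above the background in every array, gave 0.23 and was not called (adjusted p = 0.523). Lamb2 differed by 0.55, and Lamc3, whose groups overlapped, by 0.92. Lama2 and Lama4, alpha chains of mesenchymal laminins, did not pass. Lama2 lay at 6.57, 6.29 and 6.52 in group A, 6.13, 6.63 and 6.46 in group B, 6.06, 6.10 and 6.60 in group C, then 6.95, 7.76 and 6.61 in group D. Lama4 lay at 8.63, 8.44 and 8.44 in group A, 7.87, 8.54 and 8.16 in group B, 8.19, 7.98 and 8.38 in group C, then 8.71, 9.11 and 8.02 in group D. Both overlapped between group A and the gavaged groups, with differences of 0.13 ± 0.23 (adjusted p = 0.713) and 0.32 ± 0.21 (adjusted p = 0.259). Lamb1, a beta chain of early basement membranes, lay at 9.34, 8.98 and 9.01 in group A, 9.37, 9.45 and 9.35 in group B, 9.15, 9.21 and 9.06 in group C, then 9.47, 9.44 and 8.89 in group D, with a difference of -0.16 ± 0.13 (adjusted p = 0.395).

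Elastic fibre proteins were higher in group A than in groups B and C in 7 of 9 genes, with a median difference of 1.05. Eln, the elastin core, lay at 8.16, 8.58 and 8.44 in group A, 7.05, 6.63 and 6.84 in group B, 6.58, 6.68 and 6.93 in group C, then 8.92, 9.68 and 7.64 in group D. The gavaged pups were below all others, and the difference of group A from them was 1.61 ± 0.32 (adjusted p = 0.00149), a fold of 3.05. A dimmer probe set of Eln gave 0.30 in the same direction and was not called (adjusted p = 0.494). Mfap4, a microfibril protein that binds elastin and collagen, lay at 7.66, 7.62 and 7.61 in group A, 6.36, 6.57 and 6.39 in group B, 6.19, 6.68 and 6.42 in group C, then 7.53, 8.22 and 7.39 in group D. All 6 gavaged pups lay below all pups of groups A and D, the third of group D included. Group A exceeded the gavaged groups by 1.19 ± 0.17 (adjusted p = 0.000176). Fbln1, a fibulin of elastic fibres and basement membranes, lay at 5.89, 6.03 and 5.75 in group A, 4.40, 4.72 and 4.12 in group B, 3.90, 4.26 and 3.02 in group C, then 6.18, 6.88 and 4.62 in group D. It had the highest difference of the 74 genes on this scale, 1.82 ± 0.42 (adjusted p = 0.00432), a fold of 3.53. Fbln2 lay at 7.19, 7.01 and 7.18 in group A, 6.40, 6.01 and 6.40 in group B, 5.59, 5.33 and 6.37 in group C, then 7.73, 8.42 and 6.53 in group D, with a difference of 1.11 ± 0.33 (adjusted p = 0.0188). The others called were Fbln5, Efemp2 and Fbn2, at 0.95, 1.05 and 0.99. Fbn1, the main microfibril protein, lay at 10.25, 9.80 and 10.12 in group A, 9.29, 9.82 and 9.79 in group B, 9.42, 9.36 and 9.74 in group C, then 10.07, 10.31 and 9.23 in group D, and missed the threshold at 0.49 ± 0.21 (adjusted p = 0.0897). Efemp1, a fibulin with little part in elastic fibres, lay at 5.91, 6.60 and 6.48 in group A, 5.88, 6.43 and 6.44 in group B, 5.99, 5.26 and 6.59 in group C, then 7.28, 7.84 and 5.98 in group D, and missed it at 0.23 ± 0.37 (adjusted p = 0.678).

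Lysyl oxidases cross-link collagen and elastin, and 1 of 4 was called higher in group A than in groups B and C, where 31.6% of all genes were. Loxl1, which acts on elastin, differed by 1.21 ± 0.26 between group A and the gavaged groups (adjusted p = 0.00264). Lox itself lay at 6.01, 6.36 and 6.76 in group A, 6.37, 6.80 and 6.21 in group B, 5.31, 6.28 and 6.65 in group C, then 7.14, 7.89 and 6.88 in group D. Groups A, B and C overlapped and all lay below group D, and the difference of group A from the gavaged groups was 0.11 ± 0.30 (adjusted p = 0.827).

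**Figure D3:**
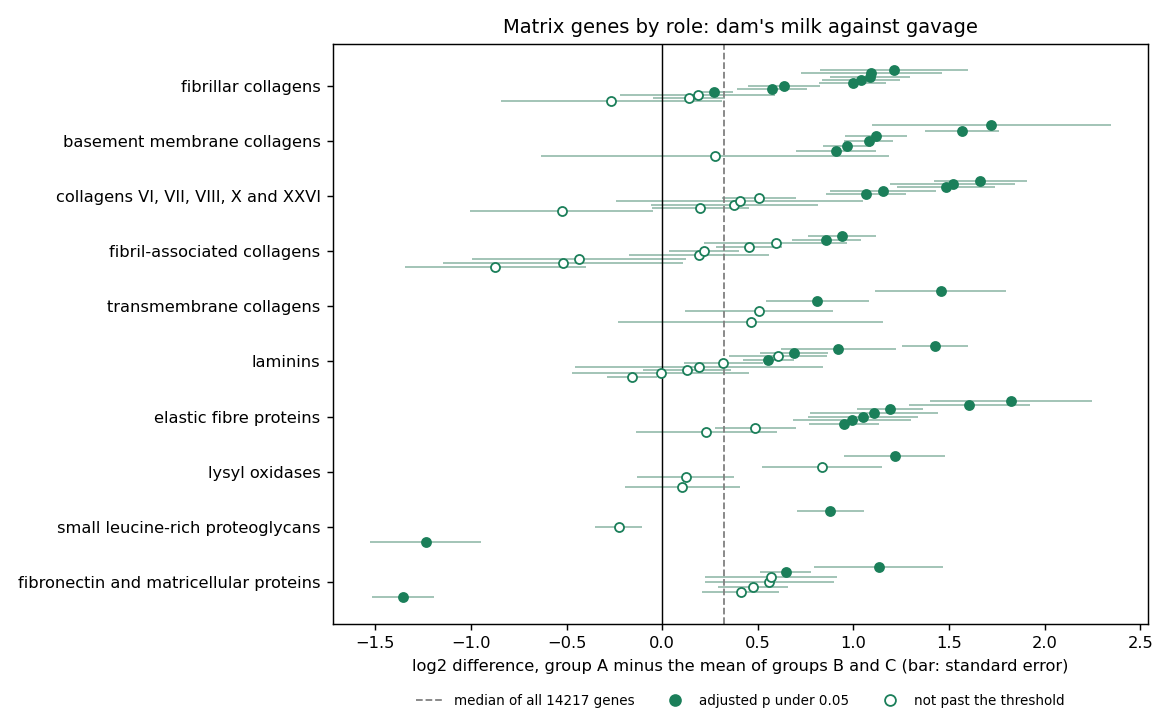
Log2 difference of group A minus the mean of groups B and C (horizontal axis) for the 74 matrix genes by role (vertical axis), with 1 point for each gene and its standard error as a bar; filled points passed an adjusted p under 0.05 and the dashed line is the median of all genes, 0.32. Filled points lie to the right of 0 in all roles, and the 2 filled points to the left are Dcn at -1.24 and Postn at -1.35.

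Small leucine-rich proteoglycans, which bind fibres and limit their width, went different ways. Dcn (decorin) lay at 8.27, 8.01 and 8.29 in group A, 9.03, 9.97 and 9.77 in group B, 9.37, 8.81 and 9.60 in group C, then 10.06, 10.64 and 9.14 in group D. Group A was below every other pup, by 1.24 ± 0.29 against the gavaged groups (adjusted p = 0.00464). Bgn (biglycan), the closest relative of decorin, lay at 8.81, 8.84 and 8.54 in group A, 8.15, 7.87 and 7.60 in group B, 7.75, 7.87 and 7.86 in group C, then 8.46, 8.82 and 7.93 in group D. It ran against decorin, with a difference of 0.88 ± 0.17 (adjusted p = 0.00153). Lum (lumican) lay at 9.94, 10.12 and 10.20 in group A, 10.15, 10.36 and 10.44 in group B, 10.43, 10.11 and 10.40 in group C, then 10.33, 10.39 and 9.94 in group D. All 4 groups overlapped, at -0.23 ± 0.12 (adjusted p = 0.172).

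Fibronectin and the matricellular proteins, which link cells to the matrix, had 2 genes higher and 1 lower of 7. Of all genes 31.6% were higher and 16.9% lower. Postn (periostin) lay at 8.79, 9.21 and 9.20 in group A, 10.23, 10.75 and 10.48 in group B, 10.59, 10.09 and 10.39 in group C, then 9.90, 10.42 and 9.89 in group D. Group A was below every other pup, and its difference from the gavaged groups was -1.35 ± 0.16 (adjusted p = 4.68e-05), a fold of 2.56. Sparc, a collagen-binding protein of secreting fibroblasts, lay at 10.64, 10.58 and 10.72 in group A, 9.86, 10.09 and 10.13 in group B, 10.08, 9.74 and 10.11 in group C, then 10.62, 10.80 and 10.17 in group D. The gavaged pups lay below all others, and group A exceeded them by 0.65 ± 0.13 (adjusted p = 0.00215). Thbs4 was the other called gene, at 1.13. Fn1 (fibronectin) lay at 9.56, 9.47 and 9.50 in group A, 9.08, 9.07 and 9.01 in group B, 9.32, 8.82 and 9.32 in group C, then 9.60, 10.05 and 8.85 in group D. Tnc (tenascin C) lay at 7.87, 8.00 and 7.82 in group A, 7.32, 7.48 and 7.67 in group B, 7.38, 6.84 and 7.34 in group C, then 8.52, 8.63 and 6.66 in group D. In both genes group A was above all gavaged pups, but the differences of 0.41 ± 0.20 (adjusted p = 0.135) and 0.56 ± 0.34 (adjusted p = 0.225) did not pass. Thbs2 and Thbs3 did not pass either, at 0.48 and 0.57.

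Where a called gene had further probe sets, these mostly had the same sign between group A and the gavaged groups. The median difference of all genes was itself positive there, at 0.32. Of 28 other probe sets, 19 had the sign of the brightest one when group A was set against the gavaged groups. Among 17 that belong to called genes, 15 had its sign and 9 were called too. Of the 11 other probe sets of genes that were not called, 2 passed the test. These were the second probe set of Col14a1, which was higher by 0.73 (adjusted p = 0.00699), and a probe set of Col12a1. The latter stood at -1.62 (adjusted p = 0.0304) while the brightest probe set of Col12a1 stood at 0.22.

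Against group D, group A differed in fewer matrix genes and in a mixed direction. Of the 74, 10 were higher (16% of all genes were) and 2 lower (12% of all genes were), and the median difference was 0.13, where that of all genes was 0.15. The higher genes were Col4a1 at 0.62, Col15a1 at 0.52, Col18a1 at 1.00, Lama5 at 0.85, Col7a1 at 1.37, Col8a2 at 0.85, Col9a3 at 1.16, Col13a1 at 1.47, Col27a1 at 0.72 and Fbln5 at 0.66. Col4a1, Col15a1, Col18a1 and Lama5 are the basement membrane genes among them, and both comparisons share group A. None of these 4 was called against group D with the intensities as deposited or with only the groups compared in the fit, Col15a1 also lost its call without the second or the third array of group A or the first of group D, and the difference of Lama5 was -0.18 with the mean of its probe sets. Dcn was lower by 1.76 ± 0.34 (adjusted p = 0.00282) and Postn by 1.01 ± 0.19 (adjusted p = 0.00239) on the log2 scale, and in both all 3 pups of group A were below all 3 of group D. Without the third array of group D, 9 genes were higher (14.6% of all genes) and 12 lower (13.4% of all genes), and 10 of the 12 first calls, all but Fbln5 and Col8a2, were among them. Those lower then included Eln, Tnc, Fbln2, Efemp1, Lox and Lama2. Leaving out the second array of group A gave 7 calls. The intensities as deposited, whose median difference over all genes was -0.02, gave 1 higher and 2 lower.

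Groups B and C, the gavaged groups, had lower matrix transcripts than 2 of the 3 reference pups, and the count rests on the third. With all arrays, no matrix gene was called in group B (0.0141% of all genes were lower), although limma gave 27 lower genes and 1 higher gene when p was not adjusted (under 0.05), where 10.5% of all genes were lower and 6.47% higher. In group C 1 gene, Mfap4, was lower (0.0352% of all genes), with 31 lower and 2 higher before adjustment of p (12.2% and 7.42% of all genes). Both gavaged groups as 1 against group D gave 3 lower, Mfap4, Eln and Col1a1, where 0.12% of all genes were, with no gene higher, and 32 lower and 1 higher before adjustment of p (14.3% and 8.50% of all genes). Mfap4 differed by -1.28 ± 0.17 (adjusted p = 0.0191), Eln by -1.96 ± 0.32 (adjusted p = 0.0355) and Col1a1 by -1.24 ± 0.20 (adjusted p = 0.0384). In these 3 genes all 6 gavaged pups were below all 3 pups of group D. Leaving out any 1 array except the third of group D left 0 to 2 of the 3 genes called, and the call of Mfap4 in group C was lost each time. The median difference of the 74 genes was -0.45 in each of the 3 comparisons, where that of all genes was -0.11, -0.12 and -0.13.

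Without the third array of group D, 34 matrix genes were lower in group B (12.8% of all genes) and none was higher, 42 were lower in group C (15% of all genes) and 2, Col9a3 and Col20a1, were higher (8.04% of all genes), and 43 were lower in groups B and C together (17.1% of all genes) and none higher. The medians were then -0.73, -0.73 and -0.70, where those of all genes were -0.19, -0.20 and -0.20. All 9 elastic fibre genes were lower in the gavaged groups together, with Eln at -2.52, Fbln1 at -2.46 and Fbln2 at -2.06. The same held for 6 of 7 basement membrane collagens, 6 of 10 collagens VI, VII, VIII, X and XXVI, 6 of 7 fibronectin and matricellular genes, 5 of 10 laminins, 3 of 4 lysyl oxidases, 3 of 11 fibrillar collagens, 3 of 9 fibril-associated collagens and, with Dcn and Bgn, 2 of 3 small proteoglycans, while no transmembrane collagen passed. Postn, at 0.26 (adjusted p = 0.359), and Lum, at -0.05 (adjusted p = 0.816), were among those that did not pass. As the array was set aside after its values were seen, these counts describe the remaining arrays. With the intensities as deposited and all arrays, 5 matrix genes were lower for group B, 46 for group C, 49 for both together and none was higher, but all genes then had medians of -0.65, -0.80 and -0.73. The share of all genes called with that scaling was not counted, so that these counts cannot be set beside it.

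**Figure D4:**
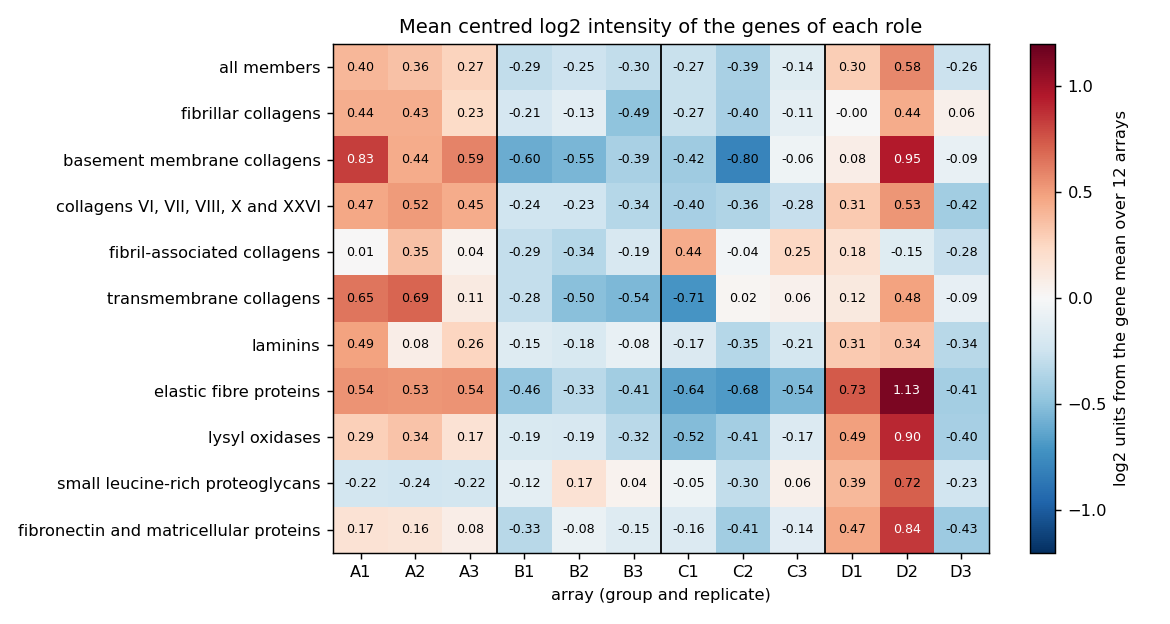
Mean log2 intensity of the genes of each role (rows) in each of the 12 arrays (columns), after the mean of each gene over the 12 arrays was taken away; red is above and blue below that mean. Over all 74 genes the 3 arrays of group A stand between 0.27 and 0.40, those of groups B and C between -0.39 and -0.14, and those of group D at 0.30, 0.58 and -0.26.

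Groups B and C, which shared gavage and differed in the dam's diet in gestation and in a TPS of 5 wk against 3 wk, gave no call among the matrix genes in limma. Before adjustment 3 genes had a p under 0.05, all lower in group B, and these were Col4a6, Col9a3 and Col20a1. Of all genes, 1.93% were lower and 1.96% higher at that threshold. Col4a6 was within the background in most of these pups. The median difference was 0.08, with 50 of the 74 genes slightly higher in group B, and the median of all genes was 0.005. A p that misses the threshold does not show that the groups were alike, and 3 pups against 3 can reach no lower than 0.1 in an exact permutation test.

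Genes that make, surround or sense the matrix were taken from lists chosen with earlier results of these data known, and their counts between group A and the gavaged groups stand beside 31.6% of all genes higher and 16.9% lower. Of 21 measured genes for collagen modification and secretion, 12 were higher in group A than in groups B and C (57.1%) and 1 was lower (4.76%), with a median of 0.73. Plod1 (1.11 ± 0.14, adjusted p = 8e-05) and Plod3 (1.18 ± 0.20, adjusted p = 0.000532), which hydroxylate lysines of procollagen, and Colgalt1 (0.73, adjusted p = 0.000615), which adds galactose to them, were higher. Mia3, which loads procollagen into transport carriers, was lower, at -0.77 ± 0.10 (adjusted p = 8.43e-05). Of 45 other matrix proteoglycans and glycoproteins, 18 were higher (40%) and 2, Ogn and Ecm2, lower (4.44%). Vwf, the von Willebrand factor of endothelium, was higher by 1.31, and Nid2 and Mmrn2, proteins of the vascular basement membrane and surface, by 0.74 and 1.16. Ogn (osteoglycin), of the same proteoglycan family as decorin, was lower, at -1.62 ± 0.24 (adjusted p = 0.000222). Of 26 receptors for matrix proteins, 14 were higher (53.8%) and 4 lower (15.4%). The lower ones included Cd36, a receptor for thrombospondin and fatty acids, at -2.52 ± 0.17 (adjusted p = 8.4e-07), Ddr2, a receptor for fibrillar collagen, at -1.41 ± 0.10 (adjusted p = 1.22e-06), and Itga1, the alpha chain of a collagen receptor, at -1.94 ± 0.20 (adjusted p = 1.56e-05), while Dag1, a laminin receptor, was higher by 0.96. Of 14 genes of TGF-beta signalling, a main inducer of matrix genes, 7 were higher (50%) and 3 lower (21.4%). The higher ones were Tgfb1 at 1.38 ± 0.18 (adjusted p = 9.59e-05), Tgif1 at 0.72, Tgfb3, Smad3, Smad7, Eng and Acvrl1. Those lower were Smad2 at -0.61, Skil at -1.24 and Tgfbr1. Signalling itself was not measured, and these counts of genes give it no direction. Without the third array of group D, 17, 24, 14 and 8 genes of these 4 lists were higher and 1, 4, 5 and 3 lower, where 35.2% of all genes were higher and 18.3% lower. Against group D with all arrays, groups B and C together had 1 lower gene in these 4 lists, Vwf, and none higher. Without the third array of group D, 13 of 21, 21 of 45, 12 of 26 and 6 of 14 were lower there, against 17.1% of all genes. In the same order 1, 1, 1 and 2 were then higher, against 8.81% of all genes.

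Markers of other cell types moved with these results in part, and their part in them was not tested. Between group A and the gavaged groups, 31.6% of all genes were higher and 16.9% lower. Without the third array of group D these shares were 35.2% and 18.3%. The summed intensity of 10 smooth muscle markers ranged over 2501 to 2594 for group A, 1532 to 1837 for group B and 1446 to 1620 for group C, and in group D the first 2 arrays stood at 8841 and 9015 and the third at 1727. Between group A and the gavaged groups, 2 of the 10, Smtn and Synpo2, were higher and none was lower, and 7 were higher without the third array of group D. For groups B and C together against group D 1, Myh11, was lower with all arrays (0.12% of all genes) and all 10 without the third (17.1% of all genes). Mesothelial markers ranged over 586 to 1130 for group D, against 431 to 437 for group A, 342 to 399 for group B and 278 to 413 for group C, with 1 of 9, Krt8, higher in group A than in the gavaged groups, and 2 without the third array of group D. Macrophage markers ranged over 5085 to 5325 for group A and 2690 to 4159 for the gavaged groups. In group D they spanned both, from 2427 in the third array to 5354. Of 8, Cd68, Csf1r, C1qa and C1qc were higher in group A than in the gavaged groups and Mrc1 lower.

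Markers of fibroblasts and reticular cells outside the 74 genes overlapped more in their sums, which ranged over 8619 to 9901 for group A, 8892 to 9713 for group B, 9090 to 9735 for group C and 9612 to 10513 for group D. Among the 16 measured, Pdgfrb, Thy1, Pi16, Cxcl12 and Pdpn were higher in group A than in groups B and C, and Dpp4, Cxcl13 and Il7 lower. The median difference of the 16 was 0.45, where that of all genes was 0.32. Without the third array of group D 7 of them were higher and 3 lower. Dpp4 was lower by 2.14 ± 0.15 (adjusted p = 8.86e-07) and Cxcl13, the chemokine that draws B cells into follicles, by 1.21 ± 0.11 (adjusted p = 4.78e-06) on the log2 scale. Endothelial markers ranged over 4954 to 5238 for group A, 4376 to 5809 for the gavaged groups and 3399 to 5833 for group D. Of 11, 3 were higher in group A than in the gavaged groups, Tie1, Egfl7 and Madcam1, and 2 lower, Tek and Emcn. Without the third array of group D 5 were higher. The counts of this paragraph stand beside 31.6% of all genes higher and 16.9% lower, or 35.2% and 18.3% without that array. Adipocyte markers were 1 higher and 1 lower of 9 and Schwann cell markers 3 higher of 7, and of the lymphocyte lists 3 of 9 T cell markers were higher and 1 lower and 2 of 7 B cell markers higher and 2 lower. Of all these markers Foxd3, of the Schwann cell list, was the only gene within the background in every array.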

How the data were processed

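RNA of the MLN of 12 pups was hybridised to Affymetrix expression arrays of the rat genome. The authors deposited one intensity per probe set and array, made with MAS5 per the labels, on a linear scale and not scaled between arrays (array medians 19.3 to 38.5); its version is not stated. The table had 31099 rows and 12 columns, 0 of them unused. Without 57 control probe sets 31042 remained for the tests; 30 zeros took the smallest positive value. Of these, 20826 carried 1 symbol, 436 several and 9780 none, and names followed the array's annotation updated to RefSeq. Log2 intensities were quantile normalized and floored at a linear intensity of 1. Background was set for each array at the 95th percentile over 27 control probe sets without spike.

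Differences were tested in limma 3.58.1 (R 4.3.3) on all 12 arrays, with a mean for each group, a variance trend, two-sided p-values and Benjamini-Hochberg adjustment over all probe sets within a comparison, and were tested on simulated data. Fold changes are on the log2 scale of floored intensities. The comparisons were A, B, C, and B with C as 1, each against D, then A against B with C, and B against C. The arrays record no read depth, and their number limits the precision. The members and lists (collagen modification and secretion, other matrix proteoglycans and glycoproteins, receptors for matrix proteins, TGF-beta signalling, and markers of smooth muscle, fibroblasts and reticular cells, mesothelium, adipocytes, endothelium and lymphatics, Schwann cells and glia, macrophages, T cells and B cells) were chosen with earlier results of these data known. Values of every array are printed for the called genes of lowest adjusted p and for a fixed set of main matrix genes, and other genes by count. The rule also named Thbs1, for which no probe set was used here. Alternatives were other scalings, floors, filters, variance models, probe set rules, call rules, a replicate block and leaving out each array.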

Additional observations from a re-analysis of the deposited data

How the results depend on the processing

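The counts below are of the 74 matrix genes. Except for the fit without the third array of group D, the share of all genes called was not counted under the alternative settings. Between group A and the gavaged groups (B and C) the 40 calls became 24 with an added fold of at least 2, with or without adjustment of p, and lay between 28 and 50 under the other settings; 15 of the 40 genes were called under every setting tried. Leaving out 1 array gave 28 to 47 calls there, 7 (without the second array of group A) to 21 (without the third of group D) for group A against group D, 0 to 34 for group B, 0 to 44 for group C and 0 to 43 for both together against group D, and 0 for group B against group C; in the 3 comparisons of gavaged groups with group D the highest count was always that without the third array of group D, and each of those counts without any other array was 2 or less. For group A against group D, the 12 calls became 5 with an added fold of at least 2, 7 with an unadjusted p under 0.05 and that fold, 3 with the intensities as deposited and 4 with only the groups compared in the fit. With an unadjusted p under 0.05 and a fold of 2, groups B, C and both against group D gave 8, 10 and 9 calls, and group B against group C 2. The intensities as deposited gave 5, 46 and 49 for groups B, C and both against group D. The single call of group C became 0 with a floor of 32, centring on the 75th percentile, no variance trend, only the groups compared, the mean of the probe sets, or 1 probe set per gene tested. The 3 calls of groups B and C together became 0 with the floor of 32, no variance trend or only the groups compared, and group B gained 2 with the mean of the probe sets. Lama5 for group A against group D turned to -0.18 with the mean of its probe sets, 2 of which were within the background in 7 and 10 arrays. Causes were not tested. Replicate numbers did not pair the samples (18 same-numbered pairs, r of their deviations -0.03 to 0.07), and a fit with the replicate block gave 14, 0, 1, 3, 41 and 0 calls in the 6 comparisons, in the order A, B, C and both against D, A against B and C, and B against C.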
